A study of Drosophila melanogaster with 4 samples.

Results

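The 10 members considered, listed by gene symbol, are genes of fat storage, breakdown and synthesis. They include the lipid droplet coat genes Lsd-1 and Lsd-2, the lipase genes bmm and Hsl, and the fatty acid import gene whd. The others are the fatty acid synthesis genes FASN1, ACC, SREBP and eloF, and the triglyceride synthesis gene mdy. Of these 10, 9 matched a row among the 13585 distinct gene identifiers of the deposited table. FASN1, which encodes fatty acid synthase, was not analysed here, because no row carried the identifier that the annotation pairs with that symbol. All 9 matched genes passed the filter on low values, a mean of at least 1 CPM (reads scaled to a common library size) over the libraries, as did 8560 genes in all.

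Poly(A) RNA came from midguts of Drosophila melanogaster in 4 groups: flies with no treatment at 2 h, flies with no treatment at 16 h, uracil-treated flies at 2 h and uracil-treated flies at 16 h. Each group had 1 library, so there is no replicate check of any difference between libraries. Uracil is a nucleobase released by some gut bacteria. The sources used here do not give the strain, sex or age of the flies, the uracil dose or the number of guts in a library. Untreated 16 h was the deepest library, with 16588143 reads in genes, and the others held 8500378 (untreated 2 h), 8990316 (uracil 2 h) and 8841796 (uracil 16 h). Levels are the authors' normalized counts, and 1 read was worth 0.127 of them in untreated 2 h, 0.0584 in untreated 16 h, 0.118 in uracil 2 h and 0.111 in uracil 16 h. Brackets after a fold hold its exact 95% counting interval, which covers sampling of reads only.

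Fat is kept in cells as droplets of triglyceride under a coat of perilipin proteins. In the fly, Lsd-1 and Lsd-2 are the perilipins, bmm encodes the main triglyceride lipase of the droplet (the counterpart of mammalian adipose triglyceride lipase) and Hsl the hormone-sensitive lipase. The freed fatty acids enter mitochondria through carnitine palmitoyltransferase, encoded by whd. In the opposite direction, acetyl-CoA carboxylase (ACC) and fatty acid synthase make new fatty acids under the transcription factor SREBP, elongases such as that of eloF lengthen them, and the diacylglycerol acyltransferase of mdy joins the last fatty acid to make triglyceride. In the midgut, enterocytes absorb dietary fat and pass it on to the rest of the body as lipoprotein.

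The libraries held the markers of enterocytes, with all 15 listed genes above the filter and the proteases CG12374, alphaTry and betaTry the most abundant of them. RNA typical of other tissues differed between libraries. The summed level of 12 Malpighian tubule genes was 404 in untreated 2 h, 447 in untreated 16 h, 180 in uracil 2 h and 1136 in uracil 16 h, with salt, Uro and NaPi-T the most abundant. That of 12 muscle genes, led by Tm1, up and Act57B, was 1951, 1964, 2846 and 3483. The summed level of 9 neuron and eye genes, led by nSyb, ninaE and Syt1, was between 22.2 and 25.2 in every library but untreated 16 h, where it was 72. Hemocyte genes (10, led by srp, Col4a1 and Pxn) summed to between 79.6 and 109, and ovary genes (17, led by gcl, osk and pgc) to between 36.6 and 83.7. In bulk tissue, fewer cells of a type and less RNA per cell cannot be told apart. The part of these differences in the results that follow was not tested.

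Levels between genes were compared per kilobase of annotated exon, on the mean of the 4 libraries. whd stood highest at 504 normalized counts per kilobase, followed by Lsd-2 at 284, bmm at 176 and SREBP at 150. ACC was at 36.4, Hsl at 19.1, Lsd-1 at 8.27, eloF at 4.36 and mdy at 3.16. The median of the 8130 tested genes with an annotated length was 16.7, so whd, Lsd-2, bmm and SREBP were among the abundant messages of the gut and Lsd-1, eloF and mdy among the scarce ones. Ranges over the libraries overlapped between whd and Lsd-2 (308 to 615 and 184 to 355), between Lsd-2 and bmm (88 to 271), and between bmm and SREBP (118 to 169). They did not overlap between SREBP and ACC (29.7 to 42.6) or between ACC and Hsl (16 to 21.5). Hsl and Lsd-1 (4.56 to 17.4), Lsd-1 and eloF (1.31 to 9.39), and eloF and mdy (1.32 to 5.11) overlapped again. Within every library, however, whd stood above Lsd-2, Lsd-2 above bmm, Hsl above Lsd-1, and Lsd-1 above eloF. Among these neighbouring pairs, the order changed between libraries only for bmm and SREBP and for eloF and mdy.

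**Figure D1:**
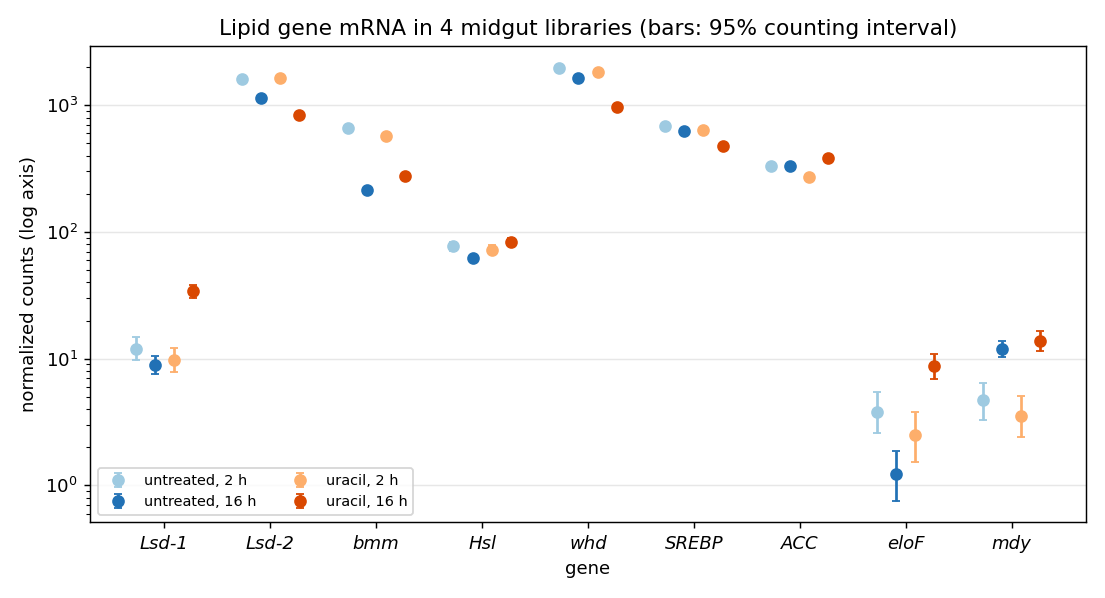
Normalized counts (vertical log axis) of the 9 measured lipid genes (horizontal axis), with 1 point for each of the 4 libraries and bars for the 95% Poisson counting interval. bmm, Lsd-2, whd and SREBP were lower at 16 h than at 2 h in both treatments, and mdy was higher at 16 h in both. Lsd-1 (34.0) and eloF (8.76) stood highest in the uracil 16 h library.

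The comparison of uracil with no treatment asks which of these messages differ after exposure. At 2 h, 0 of the 9 genes were 2-fold apart in either direction, where 3.0% of the tested genes (257 of 8560) were. Their differences, on the log2(normalized counts + 1.02) scale, ran from -0.46 to 0.01 with a median of -0.22, beside a median of 0.01 over all tested genes. Lsd-2 was the only member above 0. At 16 h the range was wider, from -0.75 to 2.12, with a median of 0.22 beside -0.02 over all tested genes. Of the 9 genes, 2 passed 2-fold upwards with uracil and 0 downwards, where 7.66% of all tested genes were higher and 0.993% lower. These 2 genes were Lsd-1 and eloF.

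**Figure D2:**
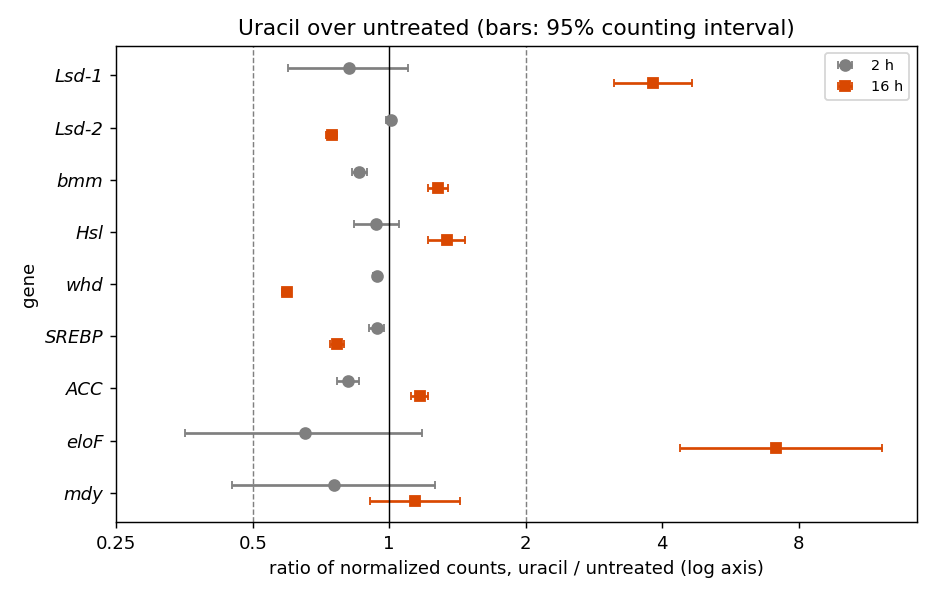
Ratio of normalized counts, uracil over untreated (horizontal log axis), for each gene (vertical axis) at 2 h (circles) and 16 h (squares). Bars are 95% counting intervals and dashed lines mark 2-fold. The 2 h ratios lie between 0.652 and 1.01, while at 16 h Lsd-1 (3.81) and eloF (7.14) lie beyond the 2-fold line and whd (0.594) is the lowest.

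Among the droplet coat genes, Lsd-2 (FBgn0030608, chromosome X, 15069127 to 15076220 in BDGP6.54) was the abundant perilipin, at 1619 normalized counts in untreated 2 h, 1131 in untreated 16 h, 1632 in uracil 2 h and 845 in uracil 16 h. The 16 h libraries were the lower ones in both treatments. Lsd-2 was 1.43-fold lower (1.4 to 1.46) at 16 h than at 2 h in untreated guts and 1.93-fold lower (1.88 to 1.99) in uracil guts. With uracil it did not differ beyond counting error at 2 h (ratio 1.01, 0.984 to 1.03), and at 16 h it was 1.34-fold lower (1.3 to 1.38).

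Lsd-1 (FBgn0039114, chromosome 3R, 23763857 to 23766662), the perilipin known chiefly from the fat body, was at 12.0 in untreated 2 h, 8.94 in untreated 16 h, 9.81 in uracil 2 h and 34.0 in uracil 16 h. Only the uracil 16 h library stood high. Lsd-1 was 3.81-fold higher with uracil at 16 h (3.13 to 4.66), a difference larger than that of 97.9% of tested genes, and at 2 h its ratio was 0.814 (0.599 to 1.1). The ratio at 16 h was 4.68 times the ratio at 2 h (3.29 to 6.66, log-normal counting interval). Per kilobase of exon, Lsd-1 stood at 1.75% of the Lsd-2 level in untreated 2 h (1.41 to 2.14), 1.85% in untreated 16 h (1.57 to 2.17), 1.41% in uracil 2 h (1.12 to 1.75) and 9.45% in uracil 16 h (8.41 to 10.6). The balance of the perilipin messages thus differed in that library, with Lsd-1 high and Lsd-2 low. Lsd-1 shares 144 bp of exon, or 7.35% of its exon length, with the gene CG10214 on the opposite strand. CG10214 was at 31.3 in untreated 16 h and 31.5 in uracil 16 h.

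Fat body markers did not all go the same way in uracil 16 h, where Lsd-1 was highest. Their summed level was 1241 in untreated 2 h, 1300 in untreated 16 h, 1133 in uracil 2 h and 1044 in uracil 16 h over 16 genes, most of it the yolk protein genes Yp1, Yp2 and Yp3. Of 9 measured fat body genes, 1 passed 2-fold upwards with uracil at 16 h and 0 downwards. Over all tested genes the shares were 7.66% and 0.993%. The median log2 difference of the 9 genes was -0.14. The gene that passed was Lsp1gamma, a larval serum protein gene, at 31.8 with uracil and 4.44 without. Lsp1alpha, Lsp2 and Fbp1 were at 0.127 or less in every library. The part of fat body RNA in the Lsd-1 difference was not tested. The genes whose profile over the 4 libraries lay closest to that of Lsd-1, by Euclidean distance of centred log2 values among 6158 candidates, were the scavenger receptor gene santa-maria (distance 0.111), CG15534 (0.185) and CG30026 (0.216). santa-maria was at 30.1, 21.8, 24.7 and 88.5 in the same order of libraries. A profile of 4 libraries is short, and 368 of the candidates lay within a distance of 1.

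The droplet lipase gene bmm (FBgn0036449, chromosome 3L, 14776496 to 14786412) was at 661 in untreated 2 h, 214 in untreated 16 h, 567 in uracil 2 h and 275 in uracil 16 h. Both 2 h libraries lay above both 16 h libraries. In untreated guts bmm was 3.08-fold lower at 16 h (2.95 to 3.22), lower than all but 0.7% of tested genes, and in uracil guts it was 2.06-fold lower (1.97 to 2.17). The uracil value fell short of 2-fold when libraries were scaled by column totals (-0.93 on the log2 scale, against -1.04). With uracil, bmm was 1.16-fold lower at 2 h (1.12 to 1.21), whereas at 16 h it was 1.28-fold higher (1.22 to 1.35). The closest profiles to bmm were those of CG16775 (0.188), CG5550 (0.204) and CG6830 (0.214), with 708 of 6158 candidates within a distance of 1.

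Hsl (FBgn0034491, chromosome 2R, 20257650 to 20261726) varied little, at 77.4 in untreated 2 h, 61.8 in untreated 16 h, 72.4 in uracil 2 h and 82.8 in uracil 16 h. Its highest library was 1.34-fold above its lowest. With uracil at 16 h Hsl was 1.34-fold higher (1.22 to 1.47), and at 2 h the ratio was 0.936 (0.836 to 1.05). Per kilobase, Hsl stood at 7.41% of bmm in untreated 2 h and 8.08% in uracil 2 h, against 18.2% in untreated 16 h and 19.1% in uracil 16 h. bmm was thus the more abundant of the lipase messages in every library, by a smaller margin at 16 h.

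Among 25 other measured lipase and lipolysis genes, 0 were at least 2-fold higher with uracil at 2 h and 1 was lower. Over all tested genes, 3.0% were 2-fold apart at 2 h. At 16 h, 3 of the 25 were higher and 0 lower, where 7.66% and 0.993% of all tested genes were. The medians were -0.07 and 0.13. The lower gene at 2 h was CG6296, of the neutral lipase family, at 98.1 with uracil and 302 without (3.08-fold lower, 2.85 to 3.34). At 16 h the higher genes were the lipase family genes CG2772 (113 against 22.4, 5.04-fold, 4.48 to 5.69) and CG8093 (429 against 116, 3.69-fold, 3.5 to 3.9), and mag. The gene mag, which encodes the secreted gut lipase Magro that digests dietary triglyceride, was at 1656 in untreated 2 h, 667 in untreated 16 h, 1987 in uracil 2 h and 1348 in uracil 16 h. Like bmm, mag was lower at 16 h than at 2 h, by 2.48-fold in untreated guts (2.42 to 2.55) and by 1.47-fold in uracil guts (1.44 to 1.51). The lipase family gene CG31091 went the other way, at 14.7, 77.9, 8.98 and 127 in that order of libraries.

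The gene whd (FBgn0261862, chromosome 2R, 10469473 to 10478567), which lets fatty acids into mitochondria, was at 1951 in untreated 2 h, 1645 in untreated 16 h, 1834 in uracil 2 h and 977 in uracil 16 h. The uracil 16 h library stood below the other 3. There whd was 1.68-fold lower than without uracil (1.64 to 1.72), lower than all but 3.4% of tested genes, and at 2 h it was 1.06-fold lower (1.04 to 1.09). The genes asRNA:CR45134 and CG11777 on the opposite strand share 182 and 171 bp of its exons, and CG11777 was at 8.21 or less in every library.

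Of 32 other measured genes of fatty acid activation, carnitine shuttle and beta-oxidation, 0 were 2-fold apart with uracil at either time. Of all tested genes, 3.0% were 2-fold apart at 2 h and 8.66% at 16 h. The medians of the 32 genes were 0.13 and -0.02. Between 2 h and 16 h their median was -0.1 in untreated guts and -0.4 in uracil guts, beside 0.04 and -0.01 over all tested genes. In uracil guts 7 of the 32 lay above 0, 2 were at least 2-fold higher and 1 lower, where 9.38% and 2.90% of all tested genes were. The lower gene was Mcad, the medium-chain acyl-CoA dehydrogenase of mitochondria, at 1201 in uracil 2 h and 538 in uracil 16 h (2.23-fold lower, 2.16 to 2.31). The higher genes were the acyl-CoA oxidase gene Acox57D-p, a peroxisomal enzyme, at 374 against 149 (2.51-fold, 2.35 to 2.68) and CG9547 at 38.3 against 16.2 (2.36-fold, 1.93 to 2.9).

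In fatty acid synthesis, SREBP (FBgn0261283, chromosome 3L, 19793935 to 19798979) was at 685 in untreated 2 h, 621 in untreated 16 h, 642 in uracil 2 h and 478 in uracil 16 h. Uracil 16 h was again the lowest library, 1.3-fold below untreated 16 h (1.25 to 1.35). SCAP, which escorts the SREBP protein to the proteases that activate it, was at 98.9, 117, 80.5 and 76.6. The protease genes S1P (27.1, 28.3, 20.1 and 23.8) and S2P (31.4, 26.2, 27.1 and 33.2) had lower normalized counts. These 3 genes were not compared per kilobase. Over 29 measured genes of SREBP processing and lipid regulation, 0 were 2-fold apart with uracil at 2 h, where 3.0% of tested genes were. At 16 h 1 was at least 2-fold higher, where 7.66% of tested genes were. The medians were -0.13 and -0.21. The 1 gene was Pka-C3, a protein kinase A catalytic subunit gene, at 47.8 with uracil and 21.0 without (2.27-fold, 1.97 to 2.62).

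ACC (FBgn0033246, chromosome 2R, 7974115 to 7991862), whose enzyme makes the malonyl-CoA used for fatty acid synthesis, was at 332 in untreated 2 h, 331 in untreated 16 h, 270 in uracil 2 h and 386 in uracil 16 h. The untreated libraries did not differ beyond counting error (ratio of 16 h over 2 h 0.995, 0.95 to 1.04), though scaling by column totals put 16 h higher by 0.15 on the log2 scale, and the uracil libraries lay on either side of them. ACC was 1.23-fold lower with uracil at 2 h (1.17 to 1.3), and the opposite held at 16 h, where it was 1.17-fold higher (1.12 to 1.22). From 2 h to 16 h in uracil guts it was 1.43-fold higher (1.36 to 1.51). SREBP and ACC, a transcription factor and an enzyme of the same pathway, therefore stood on opposite sides of their untreated levels in the uracil 16 h library.

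The elongase gene eloF (FBgn0037762, chromosome 3R, 9814161 to 9815158) is known for making long-chain hydrocarbons of the female cuticle in oenocytes, cells under the epidermis. It was at 3.8 in untreated 2 h, 1.23 in untreated 16 h, 2.48 in uracil 2 h and 8.76 in uracil 16 h, which rest on 30, 21, 21 and 79 reads. The lowest and highest values were both at 16 h. With uracil eloF was 7.14-fold higher at 16 h (4.37 to 12.2), a difference larger than that of 98.8% of tested genes, and at 2 h its ratio was 0.652 (0.355 to 1.18). From 2 h to 16 h it was 3.1-fold lower in untreated guts (1.72 to 5.7) and 3.53-fold higher in uracil guts (2.16 to 6.02).

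Of 9 measured oenocyte genes, 8 were, like eloF, highest in uracil 16 h, and 5 ordered all 4 libraries as eloF did. How many of all tested genes did either was not counted, so these 2 counts have no background beside them. Of the 9 genes, bond (7.1, 18.2, 8.74 and 59.8) was among those in another order, and Cpr was lowest in uracil 16 h (711). Cyp4g1, the oenocyte cytochrome P450 that makes cuticular hydrocarbons, was at 180 in untreated 2 h, 76.9 in untreated 16 h, 103 in uracil 2 h and 303 in uracil 16 h, the same order of libraries as eloF. In normalized counts eloF was 2.11% of Cyp4g1 in untreated 2 h (1.42 to 3.03), 1.59% in untreated 16 h (0.984 to 2.45), 2.41% in uracil 2 h (1.48 to 3.7) and 2.89% in uracil 16 h (2.28 to 3.61). The intervals of these shares overlapped between every pair of libraries, least between untreated 16 h and uracil 16 h (2.28 to 2.45). Overlap of separate intervals does not show that the shares were equal, and no test of the shares was made. Of the 9 oenocyte genes, 6 passed 2-fold upwards with uracil at 16 h and 0 downwards, with a median log2 difference of 1.46. Over all tested genes the shares were 7.66% and 0.993%. At 2 h 0 of the 9 were 2-fold apart, where 3.0% of tested genes were. The median of the 9 at 2 h was -0.34. The summed level of the 12 matched oenocyte genes was 1316, 950, 1343 and 1129, most of it Cpr, a reductase gene that other cells use too. The oenocyte gene salm was at 0 in both 2 h libraries, where 3 reads, the limit that a count of 0 allows, are worth 0.38 and 0.354. The part of oenocyte RNA in the eloF difference was not tested.

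The elongase gene CG16904 lies next to eloF on chromosome 3R, from 9815928 to 9816979. It was at 4.44, 1.75, 3.43 and 9.98, and so ordered the libraries as eloF did. It is itself in the oenocyte list. The other elongase genes within 20000 bp of eloF, CG8534, CG9458 and CG9459, were at 1.39 or less in every library. The sources used here do not say how reads of similar elongases were divided in counting, so values of this cluster are uncertain. The closest profiles to eloF among 6159 candidates were those of CG9568 (0.184), LManII (0.199) and CG3706 (0.251), with 174 within a distance of 1.

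**Figure D3:**
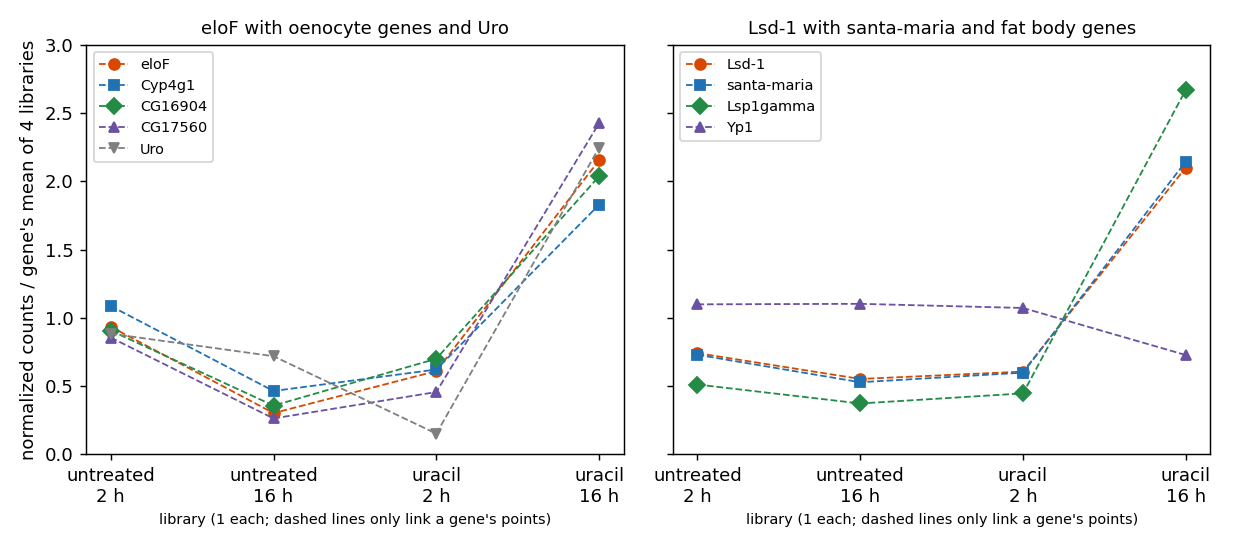
Normalized counts of each gene divided by its mean over the 4 libraries (vertical axis, no unit) in each library (horizontal axis), for eloF with 3 genes of the oenocyte list and the tubule gene Uro (left) and for Lsd-1 with santa-maria and 2 fat body genes (right). Each point is 1 library. The 3 oenocyte genes shown are among the 5 of 9 that order the libraries as eloF does. In the uracil 16 h library, where Lsd-1 is highest, Lsp1gamma is highest too (31.8) and Yp1 lowest (384).

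Of 26 other measured genes of fatty acid synthesis, elongation and desaturation, 0 were 2-fold apart with uracil at 2 h. The share over all tested genes was 3.0%. At 16 h, 4 of the 26 were higher and 0 lower, where 7.66% and 0.993% of all tested genes were. The medians of the 26 were 0.03 and 0.25. The 4 were the elongase family genes CG5326 (15.4 against 3.04), CG16904, bond and CG30008 (33.8 against 16.1). CG5326 was at 0.38 in untreated 2 h and 0.118 in uracil 2 h, so it passed the filter on low values mainly through the 16 h libraries. Other elongase genes of the list were nearer level, with log2 differences of 0.01 for Baldspot, 0.06 for Elovl7, 0.13 for CG31523 and 0.40 for CG31522. The elongase gene bond, needed for very long chain lipids, was at 7.1, 18.2, 8.74 and 59.8, and is in the oenocyte list too. The desaturase family gene CG9747 was higher at 16 h than at 2 h, at 6.19 against 1.52 in untreated guts and 10.3 against 1.77 in uracil guts. Tubule genes were high beside this group, 9 of 12 measured passing 2-fold upwards with uracil at 16 h and 0 downwards, among them the urate oxidase gene Uro at 210 against 67.2. The part of tubule RNA in these values was not tested.

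The triglyceride synthesis gene mdy (FBgn0004797, chromosome 2L, 16816660 to 16826964) was scarce, at 4.69 in untreated 2 h, 12.0 in untreated 16 h, 3.54 in uracil 2 h and 13.8 in uracil 16 h, from 37, 206, 30 and 124 reads. Both 16 h libraries lay above both 2 h libraries. At 16 h mdy was 2.56-fold higher in untreated guts (1.8 to 3.74), and in uracil guts 3.88-fold higher (2.59 to 5.99). With uracil it did not differ beyond counting error at 2 h (ratio 0.755, 0.451 to 1.26) or at 16 h (1.14, 0.907 to 1.43). Its closest profiles were those of the cytochrome P450 gene Cyp6d5 (0.198), the maltase gene Mal-A2 (0.211) and the chitin-binding gene Gasp (0.225), with 370 of 6159 candidates within a distance of 1.

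Dgat2, another diacylglycerol acyltransferase gene, was at 12.6, 15.7, 9.81 and 22.0. Per kilobase, mdy stood at 18.1% of Dgat2 in untreated 2 h (12.1 to 26.7), 37.3% in untreated 16 h (31 to 44.9), 17.5% in uracil 2 h (11.2 to 26.9) and 30.4% in uracil 16 h (24.1 to 38.2). Its level relative to Dgat2 was thus higher at 16 h in both treatments. In uracil guts the intervals met between 24.1 and 26.9, which does not show that the shares were equal. The difference of these shares was not tested. Of 20 other measured glycerolipid synthesis genes, 0 were 2-fold apart with uracil at either time. The shares over all tested genes were 3.0% at 2 h and 8.66% at 16 h. Between 2 h and 16 h the acyltransferase gene Agpat2 was lower in both treatments, at 33.9 against 101 in untreated guts and 50.1 against 121 in uracil guts. The diacylglycerol acyltransferase family gene CG1941 was higher in both, at 91.6 against 45.1 and 84.8 against 36.3.

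The comparison of 16 h with 2 h within a treatment shares its libraries with the uracil comparisons, and the sources used here do not give the hour of day or feeding state at sampling. In untreated guts, 1 of the 9 members was at least 2-fold higher at 16 h (mdy), where 2.80% of tested genes were higher, and 2 were at least 2-fold lower (bmm and eloF), where 2.84% were lower. In uracil guts, 3 were at least 2-fold higher (Lsd-1, mdy and eloF), where 9.38% of tested genes were higher, and 1 at least 2-fold lower (bmm), where 2.90% were lower. The members' medians were -0.32 and 0.19, beside 0.04 and -0.01 over all tested genes. bmm and mdy were thus 2-fold apart in the same direction in both treatments, and eloF in opposite directions. With a larger pseudocount of 5, which weighs scarce messages less, the untreated differences of mdy (0.81) and eloF (-0.50) and the uracil difference of eloF (0.88) fell short of 2-fold. Scaling by column totals left 2 members apart in untreated guts in place of 3, without eloF, and 3 in uracil guts in place of 4, without bmm.

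**Figure D4:**
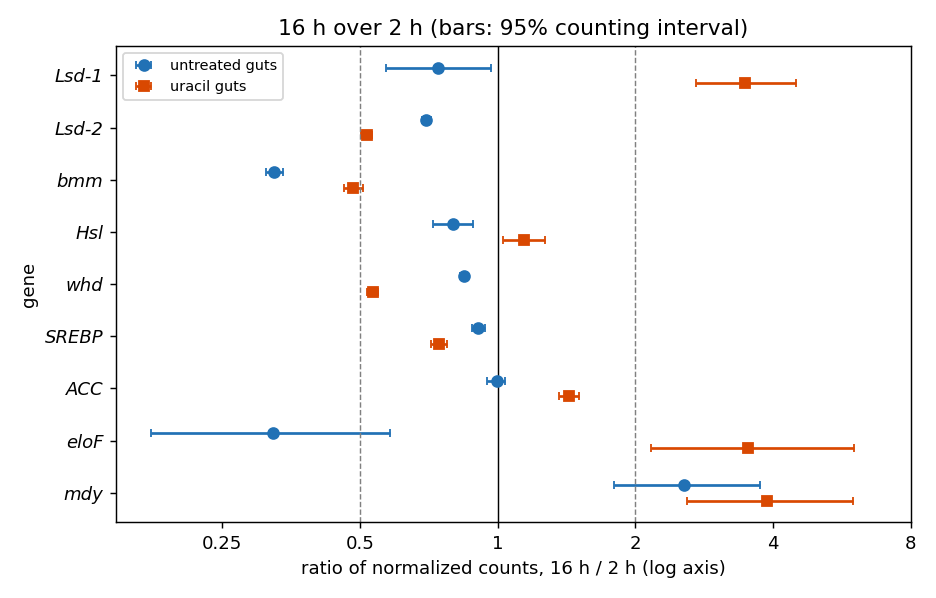
Ratio of normalized counts, 16 h over 2 h (horizontal log axis), for each gene (vertical axis) in untreated guts (circles) and uracil guts (squares). Bars are 95% counting intervals and dashed lines mark 2-fold. bmm lies below the lower line in both treatments (0.325 and 0.484), mdy above the upper line in both (2.56 and 3.88), and Lsd-1 and eloF lie on opposite sides of 1.

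Droplet genes outside the members were mostly level. Of 18 other measured genes of lipid droplet proteins and biogenesis, 0 were 2-fold apart with uracil at either time, with medians of 0.12 and 0.04. Over all tested genes, 3.0% were apart at 2 h and 8.66% at 16 h. Seipin, which shapes droplets as they leave the endoplasmic reticulum, was the only gene of the list 2-fold apart between times. The share over all tested genes was 5.64% in untreated guts and 12.3% in uracil guts. Seipin was at 203 in untreated 2 h, 77.3 in untreated 16 h, 287 in uracil 2 h and 97.6 in uracil 16 h. At 16 h it was 2.63-fold lower in untreated guts (2.45 to 2.83) and 2.94-fold lower in uracil guts (2.72 to 3.18). Jabba, a droplet protein that holds histones, was at 17.6, 9.17, 32.7 and 17.5, and its ratio of uracil over untreated was 1.86 at 2 h (1.51 to 2.29) and 1.91 at 16 h (1.52 to 2.4).

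Lipoprotein and fatty acid binding genes were the most spread of the lists. Of 18 measured, 1 was at least 2-fold higher and 2 lower with uracil at 2 h, where 3.0% of all tested genes were 2-fold apart. At 16 h, 5 were higher and 0 lower, where 7.66% and 0.993% of all tested genes were, with medians of -0.07 and 0.25. Acbp3, which encodes an acyl-CoA binding protein, was at 21.9 with uracil and 45.5 without at 2 h, and at 66.2 and 17.6 at 16 h. The sterol transport gene Npc1b was higher with uracil at both times, at 331 against 92.3 and 277 against 103, and Npc2d was at 16.3 against 44 and 467 against 50.7. Acbp6 was lower at 16 h than at 2 h, 3.34-fold in untreated guts (3.08 to 3.62) and 7.94-fold in uracil guts (7.01 to 9.01).

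**Figure D5:**
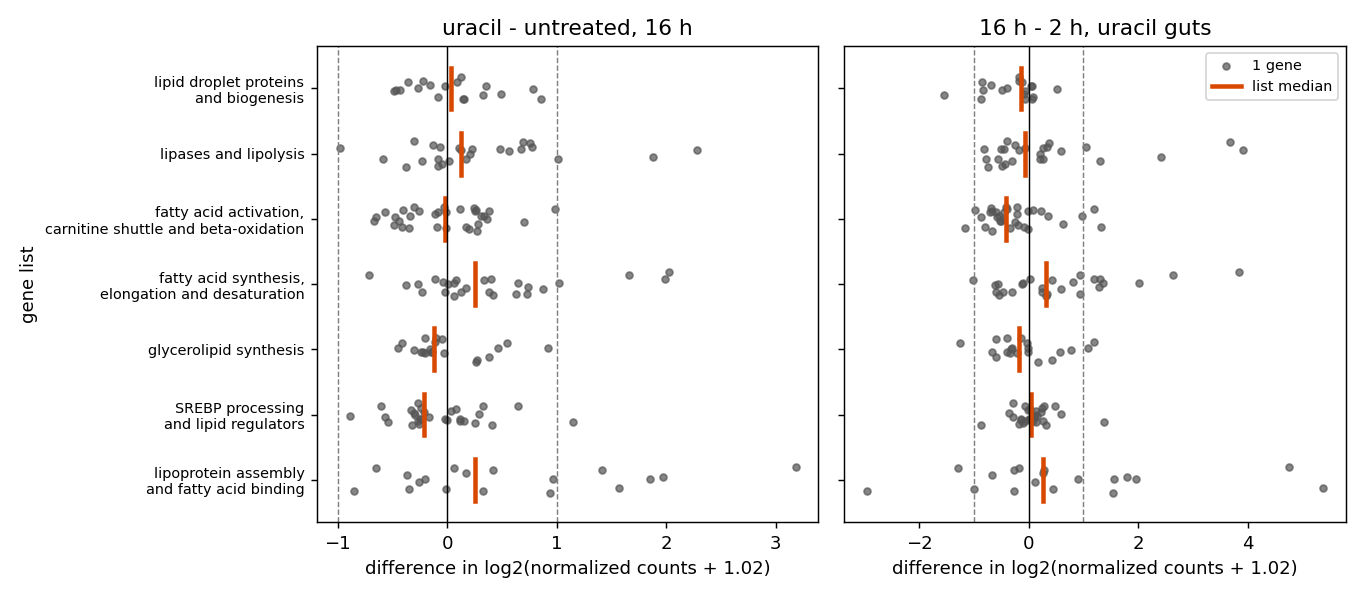
Differences in log2(normalized counts + 1.02) (horizontal axes) of the genes of each list other than the members (vertical axis, jittered within a list), for uracil minus untreated at 16 h (left) and 16 h minus 2 h in uracil guts (right). Each point is 1 gene, the thick bars are list medians and the dashed lines mark 2-fold. Lipoprotein and fatty acid binding is the widest list in both panels, and the beta-oxidation median on the right is -0.4.

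Effects common to both times (of uracil) or to both treatments (of time) were tested over all 8560 genes with limma at a Benjamini-Hochberg false discovery rate of 0.05. The residual of this fit is how far the uracil difference varied between the 2 times, so it does not stand in for replicates. For uracil 0 of the 9 members passed, where 0.0350% of tested genes did. At an unadjusted p under 0.05 there were 0 by limma, where 4.58% of tested genes were, and 0 by edgeR, where 402 genes were. For time 0 of the 9 passed by limma, where 0.421% of tested genes did, and 0 passed the edgeR threshold. At an unadjusted p under 0.05 there were 4 by limma, where 16.0% of tested genes were, and 4 by edgeR, where 1269 genes were. In log2 units these were bmm at -1.33 (SE 0.212, limma adjusted p = 0.0723), mdy at 1.44 (SE 0.288, limma adjusted p = 0.0971), Lsd-2 at -0.73 (SE 0.182, limma adjusted p = 0.142) and whd at -0.58 (SE 0.205, limma adjusted p = 0.254). Over the alternative settings the adjusted p ran from 0.00852 to 0.157 for bmm and from 0.0251 to 0.154 for mdy, so both crossed the threshold under some of them. Of 168 measured genes of the 7 lists, 0 passed for uracil by limma and 0 by edgeR. At an unadjusted limma p under 0.05 there were 7, where 4.58% of tested genes were. For time 2 passed upwards and 0 downwards by limma, with 1 past the edgeR threshold. For time 49 of the 168 were at an unadjusted limma p under 0.05, where 16.0% of tested genes were. The lists were chosen with earlier results of these data known. CG31091 rose by 3.0 (SE 0.343, limma adjusted p = 0.0324), higher at 16 h in both treatments. The other was the scavenger receptor gene ninaD, at 0.254 and 0.236 in the 2 h libraries, worth 2 reads each, and 16.5 and 51.1 in the 16 h libraries. It passed the filter on low values only through the 16 h libraries and so had to differ, and its call supports nothing.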

How the data were processed

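Total RNA of midguts was made into Illumina TruSeq poly(A) libraries, per the labels' protocols. Tools named, without roles, in the submitters' processing notes are HTSeq, edgeR, Bowtie, TopHat2 2.0.5 and cutadapt 1.0. The sources used here do not give the genome build, annotation or strand setting. The deposited signal, which the authors call normalized counts, came in equal steps within each library, and division by the step gave whole reads for 100.0% of values (tolerance 0.01 reads). edgeR on these reads called 5 genes for uracil and 10 for time. Lines that share an identifier were summed. Symbols, coordinates and exon lengths were looked up by identifier in Ensembl release 115 (BDGP6.54), whose build need not be the authors'.

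Log2 differences used a pseudocount of 1.02, worth 1 CPM. Ratios are of normalized counts without it, with Clopper-Pearson intervals from reads. limma 3.58.1 was fitted across all genes as an additive model of time and treatment (1 residual degree of freedom, prior 5.33). It was run on simulated data whose uracil folds were the same at both times. That run does not cover folds that differ between times. edgeR 4.0.16 and DESeq2 1.42.0 size factors served as alternatives. P-values rest on how far the uracil difference varied between times, pooled with information from all genes, and measure no spread between replicates. The members and gene lists were chosen with earlier results of these data known. Named genes are the members, the largest differences of each list, the most abundant markers and the closest profiles. Mcad, Jabba, Dgat2, CG30008, salm, CG17560, Lsp1alpha, Lsp1gamma, Lsp2, Fbp1, SCAP, S1P and S2P, and the overlapping or neighbouring genes, were added after values were seen, as were the level elongase genes.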

Additional observations from a re-analysis of the deposited data

Results flagged for a closer look

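For bmm and ACC the uracil libraries lay on opposite sides of the untreated ones at the 2 times, each beyond counting error. The log2 difference of bmm was -0.22 at 2 h and 0.36 at 16 h, and its ratio at 16 h was 1.49 times that at 2 h (1.4 to 1.59). The log2 difference of ACC was -0.30 at 2 h and 0.22 at 16 h, and its ratio at 16 h was 1.44 times that at 2 h (1.34 to 1.54). With 1 library per group, the difference between times was not tested for either gene.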

How the results depend on the processing

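Of 280 recomputed member differences, 266 moved by less than their counting interval and 14 by more, and none of those 2-fold apart changed sign under the settings tried. Scaling by column totals moved the median of all genes by 0.15 in untreated guts and 0.11 in uracil guts between 2 h and 16 h. Under it the shared time effect of Hsl reversed from -0.06 to 0.07, and those of bmm (adjusted p = 0.0215) and mdy (adjusted p = 0.0251) passed, as bmm did with recomputed TMM factors (0.039) and with no filter (0.00852). With a pseudocount of 5, 1 member was 2-fold apart between times in untreated guts. With a mean of at least 10 CPM, which leaves out mdy and eloF, 1 was apart in untreated guts, 2 in uracil guts between times, and 1 with uracil at 16 h. Genes past the threshold for uracil were 3, and 14 with column totals, 5 with recomputed TMM, 29 with no filter and 5 with edgeR. For time they were 36, and 307, 124, 329 and 10 in that order, and 0 with limma without trend (1270 at an unadjusted p under 0.05). The cause of these differences was not tested. Without a filter 11850 genes were tested in place of 8560, and the prior degrees of freedom were 10.2 in place of 5.33. With column totals the prior was 8.73. No paired analysis was possible because each group has 1 library and no replicate number to serve as a block, beyond the term for time that the additive fit already holds. No library could be left out for the same reason. Depth limits eloF and mdy most.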
